A study of Mus musculus with 2 samples.

Results

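The 48 genes of the presynaptic vesicle and release machinery were measured by total RNA sequencing in the forebrain of mouse embryos. They were chosen by name, as rows of both gene tables whose Ensembl identifier carries one of 48 symbols in the GENCODE M21 annotation, and all 48 were found among 69691 listed features, of which 21461 are nuclear protein-coding genes. By role, 10 encode SNAREs and their regulators, 13 synaptotagmins and complexins, 11 vesicle proteins, 8 proteins of the active zone and 6 proteins of vesicle endocytosis. The samples form 1 group: wild-type B6NCrl embryos of both sexes at 12.5 days of gestation, with no treatment. Replicate 1 pooled forebrains of 120 embryos and replicate 2 those of 68, so each value is an average over many animals and over all cells of the dissected tissue, blood and vessels included. The expected counts, which are estimated reads per gene, summed to 33711030 in replicate 1 and 34578499 in replicate 2. No second condition exists, so levels, paralogues and transcripts were compared within the tissue, and the spread between the pools served as the error.

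At a synapse, neurotransmitter is stored in vesicles that dock at the active zone, a protein scaffold on the presynaptic membrane. Fusion is driven by the SNARE complex, in which VAMP on the vesicle pairs with syntaxin and SNAP-25 on the plasma membrane, while synaptotagmins sense calcium and complexins clamp or promote the assembled complex. NSF with its adaptors takes spent SNARE complexes apart, and dynamins and their partners retrieve vesicle membrane. Several of these families also hold members that every cell uses for general membrane traffic. In the embryonic forebrain at this age most cells are progenitors or newborn neurons, and few synapses have formed.

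The tissue label was met by the marker genes. All 8 forebrain identity genes stood at 10 TPM or more in both pools, led by Dlx1 at 208 ± 53.3 TPM and Tcf7l2 at 177 ± 4.88 TPM (mean ± SD, n = 2). TPM is the abundance of a transcript per unit length relative to all others in its library. Of 9 hindbrain and spinal cord genes 0 reached 1 TPM in either pool, the highest being Egr2 at 0.30 and 0.16 TPM and Hoxa3 at 0.02 and 0.26 TPM in replicates 1 and 2. Markers of other cells that use this machinery were mixed. In both pools, 3 of 8 endocrine and pituitary genes, 3 of 8 sensory ganglion genes and 4 of 6 olfactory genes stood at 1 TPM or more. The pituitary hormone genes Prl, Gh and Tshb were listed at 0 in both pools, the sensory ganglion genes Scn10a and Tlx2 stayed at or under 0.08 TPM, and the olfactory gene Omp measured 0.61 and 0.37 TPM. The secretory granule genes Chga (31.8 ± 1.33 TPM) and Chgb (15.6 ± 0.495 TPM), Isl1 (57.6 ± 4.95 TPM) and Ebf2 (17.6 ± 1.09 TPM), which brain neurons also express, led the lists for those sites. Below them came the hormone gene Pomc (5.85 and 7.03 TPM), the olfactory genes Adcy3 (6.58 and 6.70 TPM), Gng8 (6.10 and 5.92 TPM) and Gnal (3.33 and 3.01 TPM), and the ganglion genes Sncg (3.49 and 6.20 TPM) and Pou4f1 (1.83 and 3.93 TPM). The part of such cells in the presynaptic levels was not tested.

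Nearly all of the 48 genes were present at this age. The 48 were chosen with earlier results of these data known, which bears on their share beside all genes. Of 95 further genes of the same pathways, 80 stood at 1 TPM or more in both pools. In all, 46 of the 48 genes (95.8%) stood at 1 TPM or more in both pools, where 60.0% of all nuclear protein-coding genes did, and 30 (62.5%) stood at 10 TPM or more in both, where 40.7% of all did. The median of the 48 was 13.9 and 12.7 TPM in replicates 1 and 2, against 4.42 and 4.65 TPM over all nuclear protein-coding genes and 21.6 TPM in each pool over those at 1 TPM or more. Together the 48 genes summed to 1247 and 1211 TPM. The levels spanned from 169 ± 7.22 TPM for Syt11 to 0.820 ± 0.354 TPM for Sv2c. The share of all protein-coding genes below them in mean TPM ran from 95.8% for Syt11 to 37.9% for Sv2c. In a bulk sample, few cells with much of an RNA and many cells with little of it cannot be told apart.

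**Figure D1:**
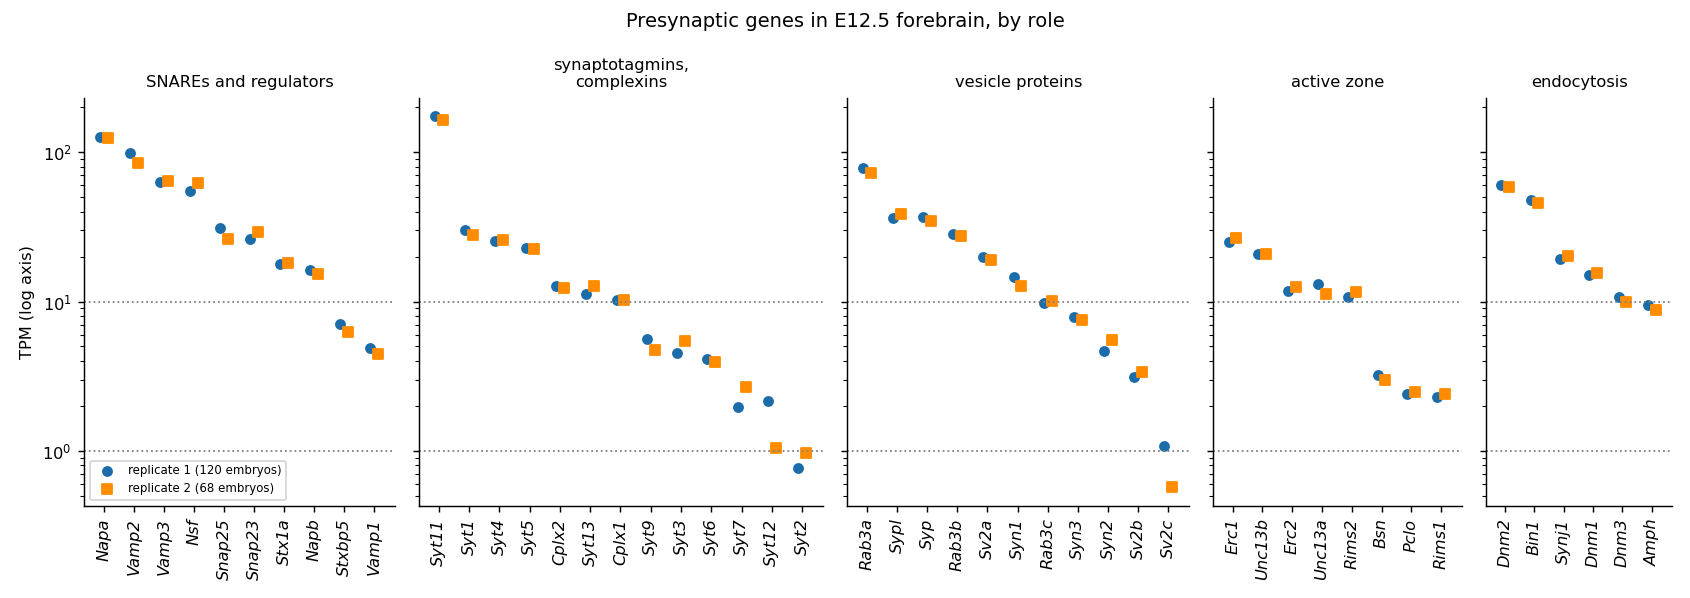
TPM (log axis) of each of the 48 genes in replicate 1 (circles) and replicate 2 (squares), by role and sorted by mean, with dotted lines at 1 and 10 TPM. The points of the pools nearly coincide for most genes, and only Syt2 and Sv2c have a point under 1 TPM.

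The SNAREs and their regulators were the most abundant role, with a median of 28.6 and 27.8 TPM in replicates 1 and 2, and 8 of its 10 genes at 10 TPM or more in both. Vamp2, the principal vesicle SNARE of the brain, measured 99.3 and 84.9 TPM in replicates 1 and 2. Snap25, its plasma membrane partner, measured 30.9 and 26.4 TPM, and Stx1a, a syntaxin of the same complex, 17.9 and 18.2 TPM. In the order of the 48 levels, Vamp2 took rank 3, Snap25 rank 12 and Stx1a rank 21. The recycling genes were high as well: Nsf, the ATPase that disassembles SNARE complexes, measured 55.4 and 62.3 TPM, and Napa, which encodes its adaptor alpha-SNAP, 126 and 124 TPM. Stxbp5, which encodes the SNARE-binding inhibitor tomosyn, stood lower at 7.06 and 6.26 TPM.

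Snap25 is shown by sequence because its transcripts differ in a pair of alternative coding exons, called 5a and 5b. Snap25 (ENSMUSG00000027273) lies at chr2:136713453-136782428 on the plus strand of GRCm38. Snap25-202 carries the upstream exon, chr2:136769743-136769860, which encodes part of SNAP-25a, and Snap25-201 the downstream exon, chr2:136770057-136770174, which encodes the matching part of SNAP-25b, the form known to predominate in adult brain. Both exons have 118 bases, of which 87 are the same (73.7%). The 31 bases that differ are in capitals.
Snap25 upstream exon: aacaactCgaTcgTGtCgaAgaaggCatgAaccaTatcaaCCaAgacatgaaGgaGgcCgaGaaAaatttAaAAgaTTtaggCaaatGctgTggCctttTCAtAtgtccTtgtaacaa
Snap25 downstream exon: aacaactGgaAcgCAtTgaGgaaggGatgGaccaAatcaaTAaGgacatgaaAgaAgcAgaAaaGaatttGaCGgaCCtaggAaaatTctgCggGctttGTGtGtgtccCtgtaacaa
Snap25-201 held 69.5% and 71.2% of the gene's TPM in replicates 1 and 2, and Snap25-202 27.1% and 24.3%. Of the TPM in transcripts with either exon, 73.3 ± 1.83% was therefore assigned to the downstream exon and 26.7 ± 1.83% to the upstream exon (SD, n = 2). The annotated transcripts also differ at their ends, since the last exon has 1354 bases in Snap25-201 and 277 in Snap25-202, and Snap25-201 rested on 872 and 794 expected counts, Snap25-202 on 154 and 123. The deposited shares do not say how many of these reads crossed the alternative exons.

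Stx1a had a split of another kind. Stx1a-201, the coding transcript, held 44.7% and 40.7% of the gene's TPM, and Stx1a-204, annotated as a target of nonsense-mediated decay, 40.7% and 46.0%. The lead changed hands between the pools, so the transcripts did not differ beyond the spread. Both end at the same base and have 10 exons, and Stx1a-204 has an annotated coding length of 768 bases against 864. Within the transcript, Stx1a-204 has an exon that begins 83 bases earlier, at chr5:135048911-135048993 on the plus strand, shown here because it separates the transcripts. They differ elsewhere as well, since Stx1a-204 has 2167 bases and Stx1a-201 2162.
Stx1a-204 exon extension: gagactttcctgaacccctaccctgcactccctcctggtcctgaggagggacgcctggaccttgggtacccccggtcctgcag
By expected count, which does not divide by length, the decay class took 44.7% and 50.5% of Stx1a.

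Napb, the brain-enriched beta form of the SNAP adaptor, measured 16.2 and 15.3 TPM. Napb-201 held 68.2% and 70.1% of it, and the decay-class transcript Napb-202 19.0 ± 2.76% (SD, n = 2). Napb-202 lacks an exon of 47 bases at chr2:148707159-148707205 on the minus strand, and its annotated coding length is 345 bases against 894.
Napb exon absent from Napb-202: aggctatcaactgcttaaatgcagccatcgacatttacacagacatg
Unlike in Stx1a, the coding transcript led in both pools by more than the spread.

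Synaptotagmins, the largest family, were dominated by 1 gene. Syt11 (chr3:88744700-88775164, minus strand) measured 174 and 164 TPM, the highest of all 48, and held 60.9 ± 0.818% of the TPM summed over the 11 synaptotagmins. Its protein lacks part of the calcium-binding residues of the family, as do those of Syt4, Syt12 and Syt13. These 4 genes together held 75.1 ± 0.222% of the TPM of the 11, a grouping made after the levels had been seen. Synaptotagmins outside the 48, such as Syt16 at 11.8 ± 1.67 TPM and Syt14 at 7.77 ± 0.339 TPM, are not in that sum. The 7 remaining genes summed to 69.9 and 67.9 TPM. Syt1, the sensor of fast synchronous release in forebrain neurons, measured 30.1 and 27.8 TPM and Syt5 22.8 and 22.4 TPM. Syt4 stood between them at 25.6 and 26.0 TPM, and Syt13 at 11.3 and 12.7 TPM.

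The remaining synaptotagmins were lower. Syt9 measured 5.65 and 4.70 TPM, Syt3 4.51 and 5.42 TPM and Syt6 4.12 and 3.92 TPM. Syt7, a slow high-affinity sensor that serves asynchronous release, stood at 1.95 and 2.67 TPM. Syt2, the fast sensor of hindbrain and spinal synapses, measured 0.770 TPM on 88 expected counts in replicate 1 and 0.960 TPM on 120 in replicate 2, well above the 0.0262 and 0.0240 TPM that 3 counts would give. The difference of Syt2 from Syt1 was -4.01 ± 0.18 on the log2(TPM + 1) scale, and Syt1 was 33.5-fold higher by mean TPM. By the posterior mean TPM, the authors' alternative estimate, Syt2 stood at 1.23 and 1.33 TPM in replicates 1 and 2. Its intervals were 0.698 to 1.88 and 0.857 to 1.90 TPM, and the log2 difference from Syt1 was -3.70. Complexins were close in level: Cplx1 measured 10.3 and 10.2 TPM and Cplx2 12.7 and 12.3 TPM.

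**Figure D2:**
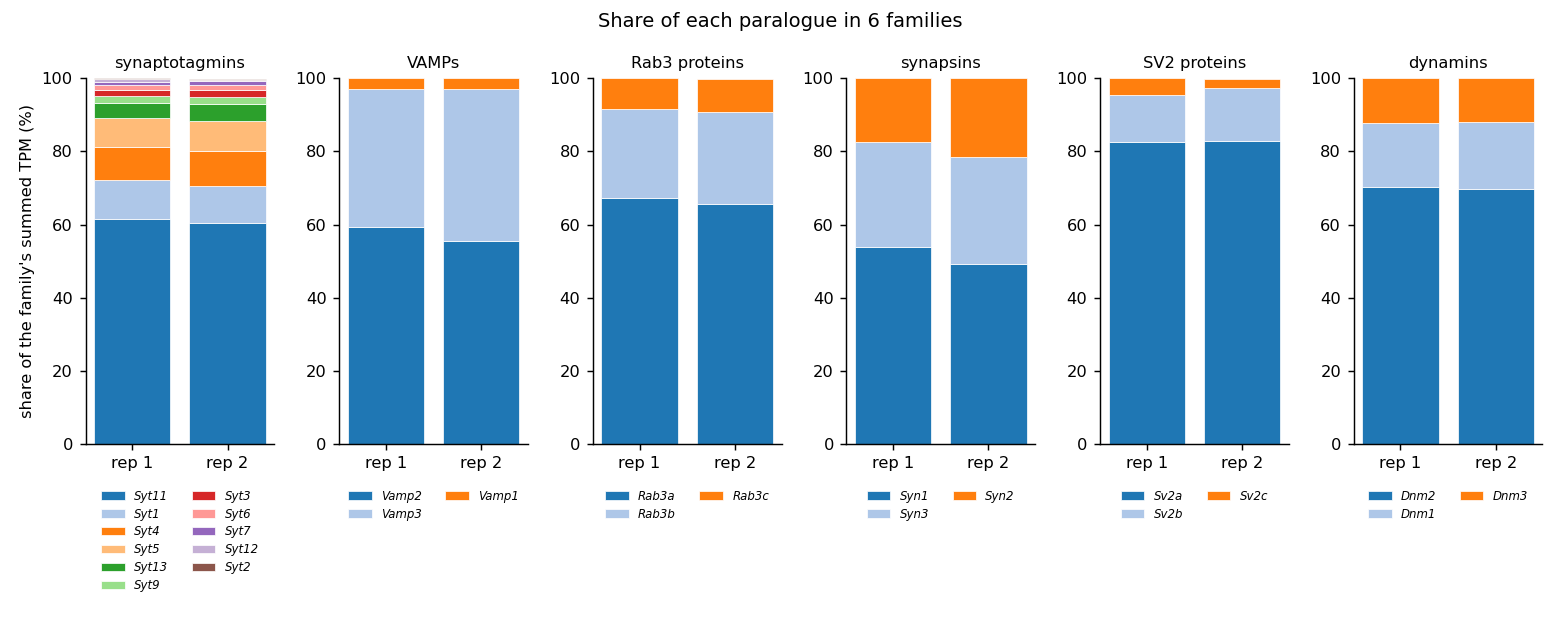
Share of each paralogue in the summed TPM of its family (percent, stacked bars) in replicate 1 and replicate 2, for 6 families. Syt11 takes 61.5% and 60.3% of the synaptotagmins, Sv2a 82.7% and 82.8% of the SV2 genes and Dnm2 70.2% and 69.7% of the dynamins.

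Among vesicle proteins, the median was 14.6 and 12.7 TPM. Rab3a, the main small GTPase of synaptic vesicles, led at 78.5 and 72.5 TPM, ahead of Rab3b at 28.3 and 27.7 TPM and Rab3c at 9.78 and 10.1 TPM. Syp, which encodes the abundant vesicle protein synaptophysin, measured 36.6 and 34.6 TPM. Sv2a, the target of the antiepileptic drug levetiracetam, measured 20.0 and 19.0 TPM and held 82.8 ± 0.0949% of the SV2 family. Its paralogue Sv2b stood at 3.11 and 3.38 TPM. Sv2c, enriched in adult basal ganglia, was the lowest of the 48, with 1.07 TPM on 82 counts in replicate 1 and 0.570 TPM on 48 counts in replicate 2.

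Synapsins, which tether vesicles to each other and to actin, were moderate. Syn1 measured 14.6 and 12.7 TPM, Syn3 7.86 and 7.53 TPM and Syn2 4.69 and 5.56 TPM, so Syn1 held 51.5 ± 3.25% of the family. Syn1 (ENSMUSG00000037217, chrX:20860511-20921004, minus strand) had its RNA split between the transcripts of both C-terminal forms. Syn1-202, the shorter coding form known as synapsin Ib (2010 coding bases), held 58.5% and 54.9%, and Syn1-201, the longer form Ia (2118 coding bases), 41.5% and 45.1%. The lead of Syn1-202 exceeded the spread between the pools. The last exon starts at different bases in these transcripts, and its first 38 bases in Syn1-201, chrX:20861572-20861609, are absent from Syn1-202.
Syn1-201 start of the last exon: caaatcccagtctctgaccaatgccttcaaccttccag
In Syn2, Syn2-202 held 57.2% and 62.7% and Syn2-201 the rest. Syn3 was less clear: the coding transcript Syn3-201 held 38.4% and 31.1%, and the retained-intron transcript Syn3-203 29.1% and 41.5%, so that the lead changed between the pools. Exons of Syn1, Syn2 and Syn3 overlap exons of Araf, Timp4 and Timp3 on the opposite strand, and no source states that counting used strand, so reads of these genes cannot be told apart there. The same holds for Rab3a with Mpv17l2, Unc13a with Colgalt1 and Dnm2 with Tmed1.

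Active zone genes were unequal. Erc1, which encodes an ELKS scaffold protein, led at 25.1 and 26.5 TPM, followed by the Munc13 gene Unc13b at 20.8 and 20.9 TPM. Unc13a, the Munc13 priming factor most synapses of the forebrain depend on, measured 13.1 and 11.2 TPM, Erc2 11.8 and 12.5 TPM, and Rims2, which encodes a RIM protein that gathers calcium channels and vesicles, 10.7 and 11.6 TPM. The giant scaffold genes were low, bassoon (Bsn) at 3.21 and 2.98 TPM and piccolo (Pclo) at 2.42 and 2.46 TPM, as was Rims1 at 2.29 and 2.42 TPM. The role's median was 11.2 and 11.4 TPM, and 5 of its 8 genes stood at 10 TPM or more in both pools. Rims2 exceeded Rims1 4.72-fold by mean TPM, a log2(TPM + 1) difference of 1.85 ± 0.03. Because TPM is divided by length, the scaffolds had more reads than shorter genes of like TPM: Bsn had 651 and 647 counts and Pclo 727 and 756, close to the 595 and 566 counts of Amph at 9.54 and 8.72 TPM. In reads they still stood below every other active zone gene except Rims1, the nearest being Rims2 with 1004 and 1129 counts.

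Transcript shares of the active zone genes varied in how firmly they were set. Rims2-201 and Rims2-202 were near even, at 51.0% and 52.9% against 49.0% and 47.1%. Unc13b-201 led with 63.9% and 61.7%, and Erc1-203 with 54.9% and 44.9%, ahead of the decay-class Erc1-206 at 22.3% and 23.4%. Rims1, on only 167 and 201 counts, was unstable: Rims1-201 held 28.8% in replicate 1 and 0% in replicate 2, and Rims1-206 2.53% and 30.1%.

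For endocytosis, the median was 17.2 and 18.0 TPM, and all 6 genes stood above 8 TPM. Dnm2, the dynamin of all tissues, measured 60.7 and 58.8 TPM, Dnm1, the neuronal form, 15.1 and 15.6 TPM, and Dnm3 10.7 and 9.93 TPM. Bin1, an amphiphysin found in many tissues, measured 47.9 and 45.7 TPM. Its neuronal relative Amph measured 9.54 and 8.72 TPM, and Synj1, which encodes the phosphatase synaptojanin that uncoats vesicles, 19.3 and 20.3 TPM. Dnm2 alone held 69.9 ± 0.356% of dynamin TPM.

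Dnm1 and Dnm2 share an alternative splicing site at which a transcript has 1 of 2 exons of 139 bases. By the order of the exons along the gene, the deposited shares of the paralogues ran in opposite directions. In Dnm1 (minus strand) the upstream exon is chr2:32334682-32334820 and the downstream exon chr2:32333066-32333204. In Dnm2 (plus strand) they are chr9:21478899-21479037 and chr9:21480407-21480545. All 4 exons are shown since the result turns on them, with the bases that differ between the exons of 1 gene in capitals.
Dnm1 upstream exon: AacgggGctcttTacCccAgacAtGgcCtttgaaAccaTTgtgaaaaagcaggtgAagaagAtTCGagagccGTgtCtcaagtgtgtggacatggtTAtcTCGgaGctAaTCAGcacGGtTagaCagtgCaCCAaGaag
Dnm1 downstream exon: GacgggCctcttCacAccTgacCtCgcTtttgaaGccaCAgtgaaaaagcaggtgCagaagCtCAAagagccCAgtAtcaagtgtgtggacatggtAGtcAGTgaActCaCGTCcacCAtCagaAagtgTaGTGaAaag
Dnm2 upstream exon: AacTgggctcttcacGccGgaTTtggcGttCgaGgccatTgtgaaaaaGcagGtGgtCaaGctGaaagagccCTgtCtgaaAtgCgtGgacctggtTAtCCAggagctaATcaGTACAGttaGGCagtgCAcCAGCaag
Dnm2 downstream exon: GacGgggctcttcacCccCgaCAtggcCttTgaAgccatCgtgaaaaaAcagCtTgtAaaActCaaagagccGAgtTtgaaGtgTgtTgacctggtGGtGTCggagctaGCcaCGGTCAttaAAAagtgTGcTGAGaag
The upstream exons of the paralogues share 110 of 139 bases (79.1%) and the downstream exons 101 (72.7%), against 71.9% between the exons of Dnm1 and 68.3% between those of Dnm2. Crosswise, the Dnm1 upstream and Dnm2 downstream exons also share 101 (72.7%), and the Dnm1 downstream and Dnm2 upstream exons 93 (66.9%). By bases, the Dnm2 downstream exon was thus as close to the upstream as to the downstream exon of Dnm1. Transcripts with either exon held 76.8% and 73.5% of Dnm1 TPM in replicates 1 and 2, and 92.1% and 92.4% of Dnm2 TPM. Of Dnm1 TPM in transcripts with either exon, 85.0% and 85.2% lay in transcripts with the upstream exon in replicates 1 and 2. Of Dnm2 TPM, 12.6% and 13.8% did, and 87.4% and 86.2% lay with the downstream exon. The shares of the paralogues differed in the same direction in both pools, by far more than their SDs of 0.141 and 0.857 percentage points. Those SDs cover the spread between the pools and not the error of dividing reads among transcripts.

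The Dnm2 shares rest on 3248 and 3138 expected counts for transcripts with the downstream exon, chiefly Dnm2-201 (40.9% and 37.4%) and Dnm2-211 (35.0% and 33.4%), and on 380 and 418 for the upstream exon, chiefly Dnm2-212 (9.28% and 11.3%). Dnm2-212 also has another last exon, so reads there enter its share too. Dnm2-202, Dnm2-203 and Dnm2-206, which join the upstream exon to the last exon region of Dnm2-201, were listed at 0% in both pools. In Dnm1 the downstream exon is carried by Dnm1-201 alone (109 and 111 counts), whose length in the tables, 3203 bases, differs from the 3246 bases of the annotation used for exons. Dnm1-205 (3189 against 3257 bases) and Dnm1-209 (3383 against 3337 bases), which enter the upstream sum, differ from it likewise. The last exon has 1167 bases in Dnm1-202 and 2017 in Dnm1-204, which have the upstream exon, against 594 in Dnm1-201. Reads of those longer ends enter the upstream share too. Among the transcripts with the upstream exon, the leading one was Dnm1-203 (27.0%) in replicate 1 and Dnm1-202 (26.7%) in replicate 2. By shares of the posterior mean TPM, Dnm1-203 held 14.9% and 10.8% and Dnm1-202 stood at 13.8% and 22.0% in replicates 1 and 2, so which of them leads in replicate 1 is not firm.

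Broadly expressed forms stood above their neuron-enriched counterparts in most pairs. The labels were set per gene, so transcripts of a gene that differ in where they are expressed were not separated. In 8 such pairs the rule asked for a log2(TPM + 1) difference of 1 sign in both pools, wider in each pool than the shift of either gene from pool to pool. Of these, 5 pairs met it with the broad form higher, 1 with the neuronal form higher, and 2 did not meet it. The widest was Napa over Napb, at 126 and 124 TPM against 16.2 and 15.3 TPM, 7.92-fold by mean TPM over all transcript classes. Coding transcripts held 56.0% and 56.8% of Napa TPM and 68.2% and 70.1% of Napb TPM. Bin1 exceeded Amph 5.13-fold, Dnm2 exceeded Dnm1 3.89-fold, Erc1 exceeded Erc2 2.12-fold and Unc13b exceeded Unc13a 1.72-fold. On the log2(TPM + 1) scale these differences were 2.91 ± 0.04, 2.24 ± 0.03, 1.89 ± 0.07, 1.03 ± 0.00 and 0.74 ± 0.15.

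The 3 exceptions were Vamp3 with Vamp2, Snap23 with Snap25 and Sypl with Syp. Vamp3, the widely used form called cellubrevin, measured 63.7 and 63.9 TPM, against 99.3 and 84.9 TPM for Vamp2, a log2 difference of -0.52 ± 0.16. Snap23, the general counterpart of Snap25, measured 26.4 and 29.3 TPM against 30.9 and 26.4 TPM for Snap25, and the difference changed sign between the pools (-0.22 in replicate 1 and 0.15 in replicate 2). Sypl, a synaptophysin relative of many tissues, measured 36.4 and 38.7 TPM against 36.6 and 34.6 TPM for Syp, with log2 differences of -0.01 and 0.16. Neither of the last 2 pairs was separated beyond the spread, which does not show that their levels were equal.

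**Figure D3:**
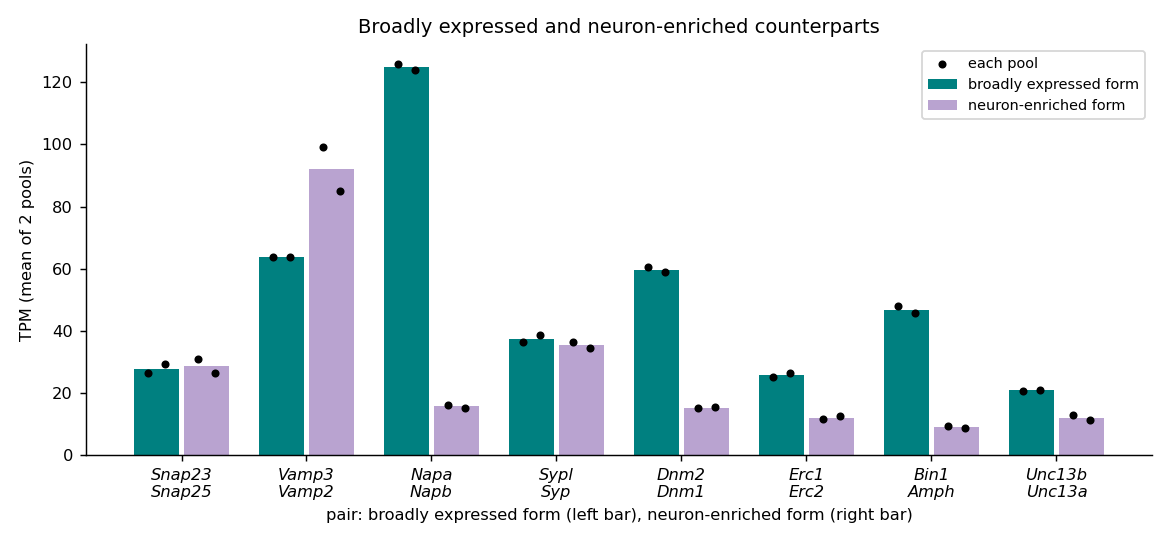
TPM of 8 pairs, with the broadly expressed form on the left and the neuron-enriched form on the right (bars, mean of the pools; points, each pool). The left bar is the higher for Napa, Dnm2, Erc1, Bin1 and Unc13b, the right bar for Vamp2, and the ranges of the pools overlap for Snap23 with Snap25 and for Sypl with Syp.

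Among 15 further pairs of paralogues, 14 met the rule, 13 of them with the lower value in the gene named first below and 1, Rims2 over Rims1, with the higher. The steepest were Syt2 against Syt1, Vamp1 against Vamp2 and Sv2c against Sv2a. Vamp1, which prevails at spinal and neuromuscular synapses, measured 4.87 and 4.44 TPM, a log2 difference to Vamp2 of -4.04 ± 0.08, and Sv2c differed from Sv2a by -3.51 ± 0.24. Rab3c and Rab3b differed from Rab3a by -2.80 ± 0.11 and -1.40 ± 0.06. Syt4 differed from Syt11 by -2.66 ± 0.08, Syt9 from Syt1 by -2.28 ± 0.08 and Sv2b from Sv2a by -2.27 ± 0.11. Small but held in both pools were Pclo against Bsn (-0.25 ± 0.07), Cplx1 against Cplx2 (-0.27 ± 0.03), Dnm3 against Dnm1 (-0.54 ± 0.10), Syn3 against Syn1 (-0.75 ± 0.10) and Syn2 against Syn1 (-1.26 ± 0.28).

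In the order of all 48 levels, 16 of the 47 neighbouring pairs met the same rule and 31 did not. The top was resolved: Syt11, Napa, Vamp2, Rab3a and Vamp3 each stood apart from the next, while Dnm2 over Nsf changed sign between the pools. That order is of TPM summed over all transcript classes. Coding transcripts held 56.0% and 56.8% of Napa TPM against 88.3% and 87.6% of Vamp2 TPM, so Napa over Vamp2 rests on the noncoding classes of Napa. From Synj1 at 19.8 ± 0.693 TPM down to Amph at 9.13 ± 0.580 TPM, only Stx1a over Napb was resolved. The order of the levels in that stretch was otherwise not resolved by these pools.

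The pools were close to each other. Over the 48 genes the median biological coefficient of variation by edgeR was 0.0697, against 0.0729 over the 14327 protein-coding genes that passed its filter on low counts. The method draws the value of each gene toward the trend of all genes, so the nearness of these medians is partly built in. Of the 46 genes at a mean of 1 TPM or more, 1 (2.17%) differed past 1.5-fold on the log2(TPM + 1) scale, where 1.80% of all protein-coding genes at that level did. That gene was Syt12, at 2.14 and 1.04 TPM in replicates 1 and 2. Its counts were 87 and 74, and its effective length was 2015 and 3378 bases, because short transcripts took part of its TPM in replicate 1: Syt12-201 held 52.0% there and 92.8% in replicate 2. By scaled counts the difference did not pass 1.5-fold.

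The authors' intervals of the posterior mean TPM, whose level is not stated, did not overlap between the pools for 5 genes. Of these, 4 (8.70%) were higher in replicate 1, near the 7.94% of all protein-coding genes at a mean of 1 TPM or more: Vamp2 (93.0 to 101 TPM in replicate 1 against 79.3 to 86.6 TPM in replicate 2), Snap25 (28.2 to 32.2 against 24.0 to 27.5 TPM), Syn1 (13.3 to 15.2 against 11.6 to 13.2 TPM) and Syt11 (165 to 174 against 155 to 164 TPM). A single gene (1, 2.17%) was higher in replicate 2, where 7.25% of all were: Syt7, with 1.68 to 2.15 TPM in replicate 1 and 2.36 to 2.90 TPM in replicate 2. The pan-neuronal markers moved the same way as the 4: 9 of 12 had intervals apart and higher in replicate 1 and 1 in replicate 2, with a summed level of 2150 and 1994 TPM, led by Tubb3 (737 and 683 TPM) and Map2 (301 and 279 TPM). Of 8 neural progenitor genes, 3 had intervals apart and higher in replicate 1 and 0 in replicate 2, among them Fabp7 at 952 and 800 TPM. The 8 forebrain identity genes divided, with 2 higher in replicate 1, Dlx1 (246 and 170 TPM) among them, and 3 higher in replicate 2, Emx1 (58.9 and 73.5 TPM) among them. Blood genes moved the other way, all 5 with intervals apart and summed levels of 6575 and 8882 TPM, led by Hbb-y (5001 and 6716 TPM) and Hba-x (948 and 1335 TPM). Vessel, meningeal and immune genes summed to 581 and 690 TPM, led by Col3a1 and Col1a1 at 323 ± 22.0 and 195 ± 35.1 TPM. The part of tissue makeup in the difference between the pools was not tested.

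**Figure D4:**
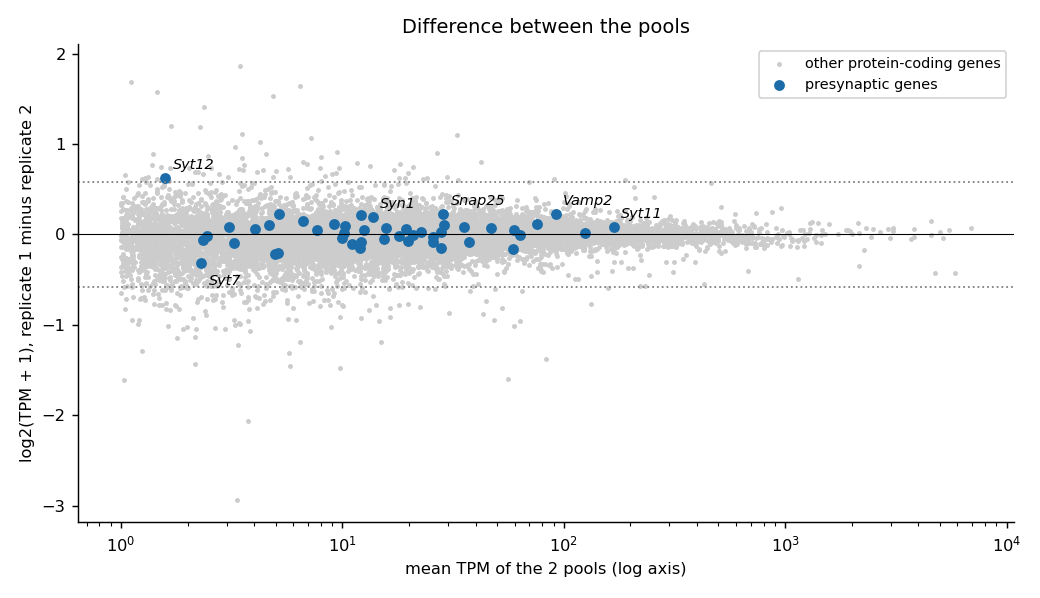
Difference between the pools (log2(TPM + 1), replicate 1 minus replicate 2) against the mean TPM (log axis) for the 46 presynaptic genes (large points) and all other protein-coding genes at a mean of 1 TPM or more (grey), with dotted lines at 1.5-fold. Syt12 alone lies past a dotted line, and the remaining 45 lie between -0.32 and 0.22.

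Annotated transcript classes were compared for 39 of the genes, those with at least 2 transcripts and a mean of 1 TPM or more. Coding transcripts held a median of 88.0% of the gene's TPM, against 90.9% over 9589 protein-coding genes chosen alike. Of the 39 genes, 11 (28.2%) had less than 75% in coding transcripts, the same share as among all such genes (28.2%). Retained-intron transcripts held 20% or more in 9 genes (23.1%, against 15.9% of all), and decay-class transcripts in 3 (7.69%, against 5.21%). The 3 were Stx1a, Syt6 and Erc1. Syt6 was the least steady of them, with 51.7% in replicate 1 and 33.5% in replicate 2.

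Shares of TPM and shares of reads differed for retained introns, since many of these models are short. Napa had 42.0% and 41.2% of its TPM in retained-intron transcripts but 12.8% and 12.6% of its expected counts. For Unc13a the shares were 30.8% and 36.4% of TPM but 6.47% and 7.23% of counts. Counted by reads, 4 of the 39 genes (10.3%, against 16.4% of all) had less than 75% in coding transcripts, namely Napb, Stx1a, Syn3 and Syt6. By the same measure 2 (5.13%, against 8.95% of all) had 20% or more in retained introns, namely Pclo and Syn3. In Pclo that share was 24.8% and 24.6% of counts, and in Syn3 49.9% and 60.2%.

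**Figure D5:**
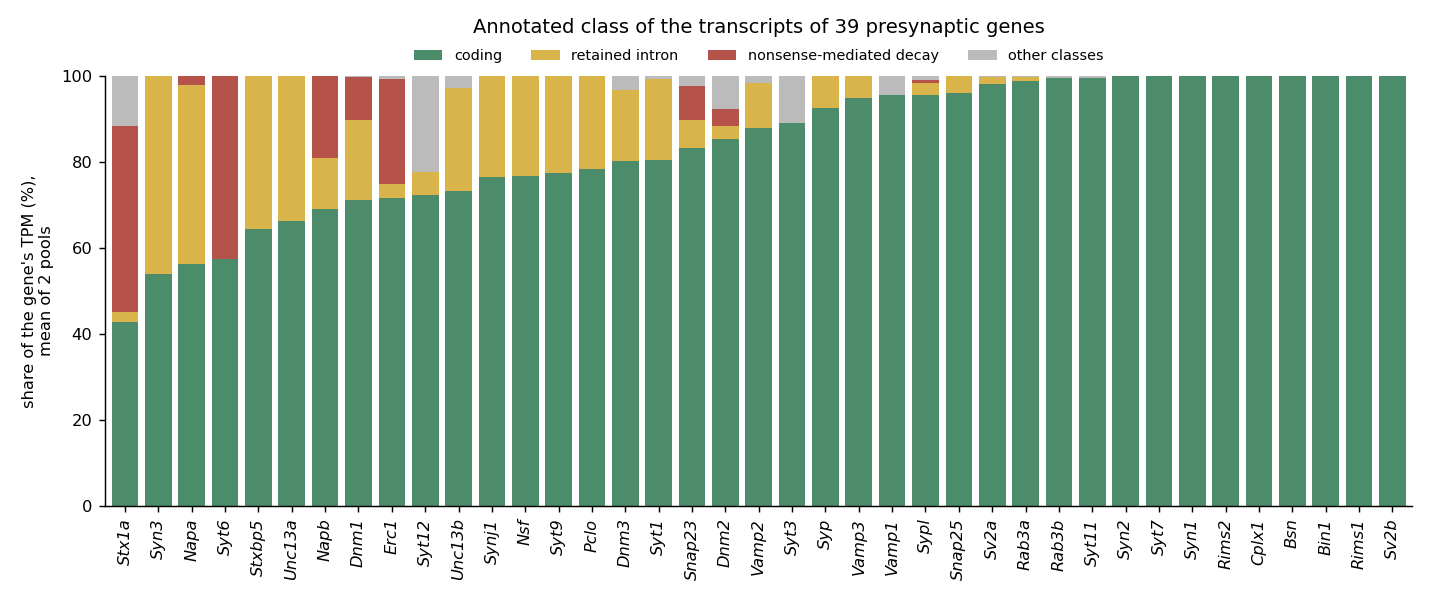
Share of each gene's TPM (percent, mean of the pools) in transcripts annotated as coding, retained intron, nonsense-mediated decay or other, for 39 genes ordered by the coding share. The share runs from 42.7% in Stx1a to 100% in Syn1, Rims2, Bin1 and others at the right.

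The leading transcript was the same in both pools for 31 of the 39 genes (79.5%), where 90.6% of all such genes kept theirs. It led by more than the spread in 28 (71.8%, against 81.3% of all such genes). Bin1-202 led Bin1 with 57.3% and 62.8%, Vamp1-203 led Vamp1 with 66.1% and 75.3%, and Vamp2-201 led Vamp2 with 69.9% and 68.1%. The lead changed in Stx1a, Syn3, Syt6, Stxbp5, Dnm1, Synj1, Dnm3 and Sv2b. In Sv2b the change was the widest, with Sv2b-201 at 63.3% in replicate 1 and 24.6% in replicate 2. In Stxbp5, Stxbp5-209 held 33.2% and 27.9% and Stxbp5-201 29.0% and 35.3%. In Syt7, Syt7-201 held 50.8% and 49.3% and Syt7-203 49.2% and 38.0%, a lead within the spread.

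The promoters of 37 of the genes are in the RefSeq table on GRCm38.p6, as windows of 250 bases before to 50 after the start. REST, a repressor of neuronal genes outside neurons, is known to bind a site made of 2 conserved blocks. The block CAGCACC, on either strand, was present in 4 of the 37 (10.8%: Napa, Sv2c, Syn1 and Unc13a), against 8.14% of 27025 genes. The block GGACAGC was present in 3 (8.11%: Sypl, Syt6 and Unc13a), against 7.59%. Both blocks with a gap of 2 bases, the last base of the second left free, were in 0 of the 37 and in 0.0407% of all. With only 11 of 27025 genes holding both, a count of 0 among 37 says little. Sites outside these windows or with other bases were not looked for.

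Further genes of the same pathways, 95 of 96 listed, placed the 48 in context. Among them 80 stood at 1 TPM or more in both pools and 49 at 10 TPM or more. Of 13 other SNARE fusion genes all 13 passed 1 TPM, among them Snap47 (141 ± 2.26 TPM) and Vamp4 (52.4 ± 3.05 TPM). Of 15 other calcium sensors 9 passed, among them the calmodulin genes Calm2 (1022 ± 5.60 TPM) and Calm3 (186 ± 2.84 TPM), while Cplx4 was listed at 0. Of 25 other vesicle genes 21 passed, led by the proton pump subunit Atp6v1b2 (123 ± 2.18 TPM), the chaperone gene Dnajc5 (108 ± 2.38 TPM) and Atp6v0d1 (78.2 ± 0.870 TPM). Of 19 other active zone genes 15 passed, led by Lin7c (130 ± 6.08 TPM), Apba2 (75.5 ± 0.255 TPM) and Ppfia1 (38.2 ± 3.46 TPM). Of 23 other endocytosis genes 22 passed, led by the clathrin adaptor genes Ap2m1 (489 ± 5.85 TPM) and Ap2s1 (213 ± 5.98 TPM) and the light chain gene Clta (195 ± 2.10 TPM).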

How the data were processed

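Each pool was quantified alone on mouse build mm10 with the GENCODE M4 annotation, per the README deposited beside the tables. The sources used here name neither aligner nor quantifier. Per the labels, 10 ng of RNA extracted with the mirVana kit entered each library, with ERCC spike-ins. The authors' tables give expected counts, TPM and FPKM per gene and transcript, and the percent of a gene's TPM that falls to each transcript. The deposited TPM is relative to all features, spike-ins included, and the deposited interval bounds, a signal on the same scale, belong to the posterior mean TPM. A read that matches several transcripts was divided among them, so transcripts with few bases of their own have the least certain shares, and retained-intron transcripts can take reads of the unspliced RNA that total RNA contains.

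Symbols, positions, exons and classes were looked up in GENCODE M21 (same build) by unversioned identifier. Of 253 transcripts of the 48 genes, 226 had the same length there, and exon positions are given for those and for Dnm1-201, Dnm1-205 and Dnm1-209. Exons of 20 genes overlap another gene, 19 of them on the opposite strand. A gene was called present at 1 TPM in both pools. Comparisons used log2(TPM + 1), which understates folds of low genes. Means and SDs are over 2 pools, which are biological replicates per the labels, and no p-value was computed. The floor of 3 counts covers counting error only. Intervals belong to each pool alone and do not cover the spread between the pools. They can be wider than counting error: that of Syt12 ran from 1.31 to 3.87 TPM on 87 expected counts in replicate 1. Expected counts were rounded for edgeR 4.0.16 (TMM, coefficient of variation) and DESeq2 1.42.0 (size factors), run in R 4.3.3. Other steps used Python 3.11.15 with pandas 2.3.3, numpy 2.4.6 and matplotlib 3.10.9. The coefficient of variation and a 1.5-fold call on TMM-scaled counts were checked on simulated data.

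The members, lists, pairs and thresholds were chosen with earlier results of these data known. Named were all members, both genes of each pair, the 3 highest of each further list and the 2 highest of most marker lists. Further markers were named after their values were seen. A few results that this rule selects are not reported here. Vamp7 was not analysed, nor was the later deposit that the series title names.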

Additional observations from a re-analysis of the deposited data

How the results depend on the processing

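The count of genes present in both pools stayed within 1.5 times of 46 under thresholds of 0.5 and 5 TPM, posterior mean TPM, FPKM, rescaling to nuclear protein-coding genes and either pool alone (46 to 47 alone). The 23 pairs kept their calls and directions under a pseudocount of 0.1, posterior mean TPM, FPKM and rescaling, and every called pair kept its direction in each pool alone, where the spread and so the count of pairs cannot be had. Role medians moved by more than the SD between the pools, in the order SNAREs, synaptotagmins and complexins, vesicle proteins, active zone and endocytosis, to 17.0, 6.17, 8.22, 7.00 and 10.6 in FPKM and to 35.3, 12.8, 17.1, 14.6 and 22.0 TPM after rescaling, since both rescale all genes. With posterior mean TPM they moved to 10.3 (synaptotagmins and complexins), 11.3 (active zone) and 18.4 (endocytosis). Either pool alone gave medians of 27.8 to 28.6, 10.2 to 10.3, 12.7 to 14.6, 11.2 to 11.4 and 17.2 to 18.0 TPM. The difference of Syt12 between the pools, the 1 past 1.5-fold, was lost (0 genes) with posterior mean TPM, with edgeR TMM scaling of counts and with DESeq2 size factors. With shares of the posterior mean TPM, an alternative chosen after seeing the data, the downstream exon held 15.8% in Dnm1 and 85.0% in Dnm2, and its Snap25 share moved by less than the SD. The pools alone gave 72.0% to 74.5% for Snap25, 14.8% to 15.0% for Dnm1 and 86.2% to 87.4% for Dnm2. Among single leading transcripts, Dnm1-203, Dnm2-201, Syt7-201, Unc13b-201, Stxbp5-201 and Napb-201 moved by more than the SD with posterior shares (to 12.9%, 34.7%, 41.5%, 58.3%, 26.9% and 67.8%). No paired analysis was possible because the pools form 1 group.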
